A study of Mus musculus with 10 samples.

Results

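Bone cells sense load through ion channels, cilia and caveolae in their membranes, and pass the signal on through ATP, calcium, prostaglandins and nitric oxide. This account covers 10 genes of that machinery in mouse femur: Piezo1, Trpv4, Pkd1, Pkd2, Panx1, P2rx7, Gja1, Cav1, Ptgs2 and Nos3. They were taken by name from the array's gene probes, through the gene name or the transcript accession of each probe, and make up 10 of the 18956 genes with a symbol and a tested probe. The unloaded group was 5 male ICR mice aged 6 months whose hindlimbs had been unloaded for 24 h by hanging each mouse from its tail, head down. The control group was 5 freely moving male ICR mice of the same age, taken at the same 24 h point. Each femur gave total RNA for 1 Agilent one-colour array, so each group has 5 animals and 5 arrays. Unloaded mice weighed 27.3 ± 1.72 g and control mice 28.6 ± 1.78 g (SD, n = 5 each; exact two-sided permutation p = 0.278).

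Osteocytes are bone cells buried in the mineral that touch each other through long processes joined by gap junctions. Fluid moving past them when bone bends opens mechanosensitive channels, lets ATP out through pannexin and connexin channels and brings on prostaglandin E2 synthesis. The femur sample holds other cells too, and several of these 10 genes are at least as well known from endothelium, fat and blood cells as from osteocytes. In whole-bone RNA, fewer cells of a type and less RNA per cell cannot be told apart.

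The 10 genes had 16 probes, of which 15 were tested. The remaining one, another Pkd2 probe, was not well above background on any of the 10 arrays. Pkd2, P2rx7, Panx1, Cav1 and Ptgs2 had 2 tested probes each, and the other 5 genes had 1. The Piezo1 probe carries an old clone name, and it was assigned because the file describes its transcript as mKIAA0233, which RefSeq lists as a synonym of Piezo1 alone. A second probe with the same clone name but another accession could not be assigned to Piezo1 by the rule, and it is given only beside it. Levels below are log2 signal relative to the 75th percentile of the array, so 0 is that percentile. Levels of different probes are not set against each other, since probes differ in how brightly they light up.

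The start regions of Gja1 and Ptgs2 are shown because both genes are known to be switched on by signals that follow loading, through cAMP and AP-1 factors among others. Each sequence is the RefSeq window of 280 bases in build GRCm38.p6, plus strand, from 250 bases before the annotated start to 30 bases past it. Capitals mark matches on either strand to the AP-1 letters TGANTCA, to CGTCA, the short form of the cAMP response element, and to the E-box CACGTG.
Gja1, chr10:56377050-56377329: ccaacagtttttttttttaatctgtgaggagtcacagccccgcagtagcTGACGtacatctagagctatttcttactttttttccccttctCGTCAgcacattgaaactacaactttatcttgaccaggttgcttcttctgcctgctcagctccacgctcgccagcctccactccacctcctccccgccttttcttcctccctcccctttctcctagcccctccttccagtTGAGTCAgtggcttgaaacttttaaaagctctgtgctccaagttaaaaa
Ptgs2, chr1:150099781-150100060: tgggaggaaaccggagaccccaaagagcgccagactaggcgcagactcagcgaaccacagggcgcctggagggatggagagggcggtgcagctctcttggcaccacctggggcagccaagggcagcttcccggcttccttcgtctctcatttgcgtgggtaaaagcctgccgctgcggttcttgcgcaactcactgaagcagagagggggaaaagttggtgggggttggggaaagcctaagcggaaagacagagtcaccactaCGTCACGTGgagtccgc

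The Gja1 window held 1 AP-1 match, starting 19 bases before the annotated start, and 2 short forms. The Ptgs2 window held 1 short form and 1 E-box, which share their CA and lie just past the annotated start. Of the 32851 RefSeq windows of the same length, 7.46% held the AP-1 letters, 19.9% the short form and 6.79% the E-box. Windows were found for 9 of the 10 genes, all but Nos3, with 2 windows each for P2rx7 and Cav1. The Pkd2 window begins at 104459207, past the listed gene start of 104453982. That of Pkd1 begins at 24549700, past the listed gene start of 24548689. The full cAMP response element TGACGTCA was in no window of those 9 genes and in 1.74% of all windows. Beside Gja1, P2rx7 had an AP-1 match in 1 of its 2 windows and Panx1 had a short form.

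After 24 h of unloading, none of the 10 genes differed between the groups beyond the spread of the animals by its brightest probe. In the limma fit over all probes, 0 of the 10 were called at an adjusted p below 0.05, beside 0.00528% of all genes tested. None of the 10 brightest probes reached an unadjusted p below 0.05, beside 15.8% of all genes. None had all 5 unloaded femurs on one side of all 5 control femurs, beside 3.3% of all genes. Over the 15 tested probes, 0 were called (0.00259% of all tested probes) and 0 had groups that did not overlap (3.16% of all). Of these 15, 1 had an unadjusted p below 0.05, the second P2rx7 probe (16.1% of all). A difference above 0 was found for 9 of the 15 (62.6% of all). By the brightest probe, 6 differences were above 0 and 4 below, with a median of 0.05 on the log2 scale, and the median over all genes was also 0.05. Of all genes, 60.4% had a difference above 0. The differences ran from -0.28 for Pkd1 to 0.25 for Trpv4, and adjusted p lay between 0.324 and 0.994. In this fit, which leaves slide out, the 95% intervals of all 15 probes lay between 0.649-fold and 1.62-fold of control. With slide as a block they widened to between 0.568-fold and 2.54-fold, and none of the 15 was called.

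**Figure D1:**
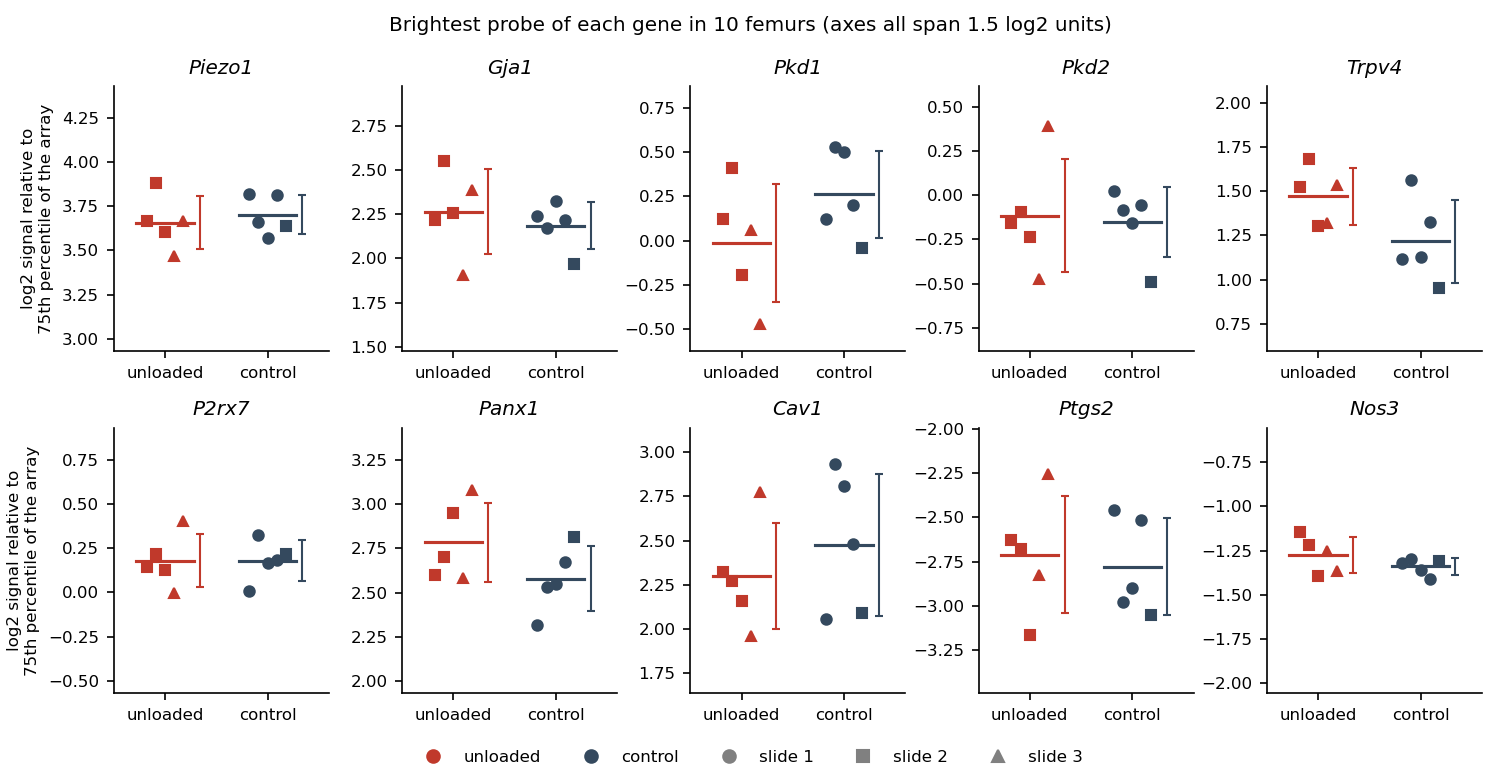
Log2 signal of the brightest probe of each of the 10 genes, relative to the 75th percentile of the array, in 5 unloaded (red, left) and 5 control femurs (dark, right); the shape gives the slide, the bar the mean and the whisker 1 SD. The groups overlap for every gene shown, and Trpv4 has the largest difference above 0 at 0.25.

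The arrays lay on 3 slides, which touches every value here. Slide 1 held 4 control arrays, slide 2 held 3 unloaded arrays and control 5, and slide 3 held 2 unloaded arrays. A value within a slide therefore rests on control 5 alone, and slide and treatment are largely confounded. Within slide 2 the difference of the brightest probe had the other sign for Piezo1, Pkd1, Panx1 and Cav1. For 4 of the 10 genes control 5 lay outside the range of the 3 unloaded arrays of slide 2, beside 47.9% of all genes. Unloaded 5 stood somewhat apart, with a median correlation to the other arrays of 0.973 against 0.985 to 0.988 for the other 9 arrays.

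Piezo1 and Trpv4 are calcium-permeable channels. Piezo1 opens when the membrane is stretched and is needed for the bone response to load in mice. Its level was 3.67, 3.88, 3.60, 3.47 and 3.66 in unloaded femurs 1 to 5, against 3.82, 3.66, 3.57, 3.82 and 3.64 in control femurs 1 to 5. The ranges overlap almost wholly. The means were 3.66 ± 0.15 in unloaded and 3.70 ± 0.11 in control femurs (SD, n = 5 each), a log2 difference of -0.04 (SE 0.10, 95% interval -0.26 to 0.17, limma adjusted p = 0.824). Within slide 2 the difference was 0.08. The unassigned probe of the same clone name, BC039210, differed by 0.23 (SE 0.11, limma adjusted p = 0.310), and the gap between it and the Piezo1 probe was not tested.

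Trpv4, a channel that responds to swelling and fluid flow and is known from cartilage as well as bone cells, came nearest to a difference among the brightest probes. Its level was 1.52, 1.68, 1.30, 1.32 and 1.53 in unloaded femurs, against 1.12, 1.56, 1.13, 1.33 and 0.95 in control femurs. Controls 2 and 4 lie inside the unloaded range, and the other 3 controls lie below it. The means were 1.47 ± 0.16 in unloaded and 1.22 ± 0.23 in control femurs (SD, n = 5 each). The log2 difference of 0.25 (SE 0.12, 95% interval -0.01 to 0.52) corresponds to 1.19-fold and was not called (limma adjusted p = 0.324). Within slide 2 it was 0.55, set by control 5, whose level of 0.95 was the lowest of all 10 and stood 0.33 below the mean of the other controls.

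The polycystins Pkd1 and Pkd2 form a receptor and channel complex in the primary cilium, and loss of Pkd1 from mouse bone cells lowers bone mass. Pkd1 was at 0.12, 0.41, -0.19, 0.06 and -0.47 in unloaded femurs, against 0.12, 0.53, 0.50, 0.20 and -0.04 in control femurs. Unloaded 3 and 5 lie below every control, and the other 3 unloaded femurs lie inside the control range. The means were -0.01 ± 0.33 in unloaded and 0.26 ± 0.25 in control femurs (SD, n = 5 each), a log2 difference of -0.28 (SE 0.16, 95% interval -0.62 to 0.07, limma adjusted p = 0.382). Without unloaded 5 it was -0.16, and within slide 2 it was 0.16.

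Pkd2 has 2 tested probes. The first read -0.16, -0.10, -0.24, -0.47 and 0.39 in unloaded femurs, against 0.03, -0.08, -0.16, -0.05 and -0.49 in control femurs. Unloaded 5 is the highest of the 10, control 5 the lowest, and the others are mixed. On the log2 scale the difference was 0.04 (SE 0.15, 95% interval -0.29 to 0.36, limma adjusted p = 0.908), -0.09 without unloaded 5 and -0.05 without control 5. The second probe gave 0.17 (SE 0.11, limma adjusted p = 0.413), and the probes differed from each other by no more than the animals (exact two-sided permutation p = 0.278 of the within-array difference, adjusted p = 0.463 over 5 such genes).

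Panx1 forms the channel through which ATP leaves the cell, and P2rx7 is an ATP-gated channel of osteoblasts and osteocytes and also of macrophages. The first Panx1 probe read 2.60, 2.70, 2.95, 2.58 and 3.08 in unloaded femurs, against 2.32, 2.53, 2.55, 2.68 and 2.81 in control femurs. The upper part of the unloaded range lies above every control, while controls 4 and 5 lie above the lowest unloaded values. The log2 difference was 0.21 (SE 0.13, 95% interval -0.06 to 0.48, limma adjusted p = 0.397), and within slide 2 it was -0.06. The second Panx1 probe gave -0.15 (SE 0.17, limma adjusted p = 0.651), with control 1 the highest at -0.75. The probes ran against each other over the 10 arrays (Pearson r = -0.44, Spearman rho = -0.16, as a description), and the gap between their differences, 0.36, was within the spread of the animals (exact two-sided permutation p = 0.262, adjusted p = 0.463).

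The first P2rx7 probe read 0.14, 0.22, 0.13, -0.0037 and 0.41 in unloaded femurs, against 0.0077, 0.32, 0.17, 0.18 and 0.22 in control femurs. These ranges cover each other, and the log2 difference was -0.0016 (SE 0.10, 95% interval -0.22 to 0.21, limma adjusted p = 0.994). The second P2rx7 probe read -2.18, -2.48, -2.61, -2.53 and -2.14 in unloaded femurs, against -2.71, -2.62, -2.73, -2.42 and -3.29 in control femurs. Here only control 4 lies inside the unloaded range and control 5 is far below the rest. This probe differed by 0.37 on the log2 scale (SE 0.15, 95% interval 0.04 to 0.69, unadjusted p = 0.0322), which is not past the threshold over all probes (limma adjusted p = 0.286). It was the only 1 of the 15 probes with an unadjusted p below 0.05, beside 16.1% of all tested probes. Within slide 2 the difference was 0.87 (with slide as a block SE 0.22, unadjusted p = 0.00206, limma adjusted p = 0.557), set against control 5 alone. Its raw signal was low, between 82 and 172 units. The gap between the P2rx7 probes had an exact two-sided permutation p of 0.0397, or 0.198 adjusted over the 5 genes with 2 probes.

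**Figure D2:**
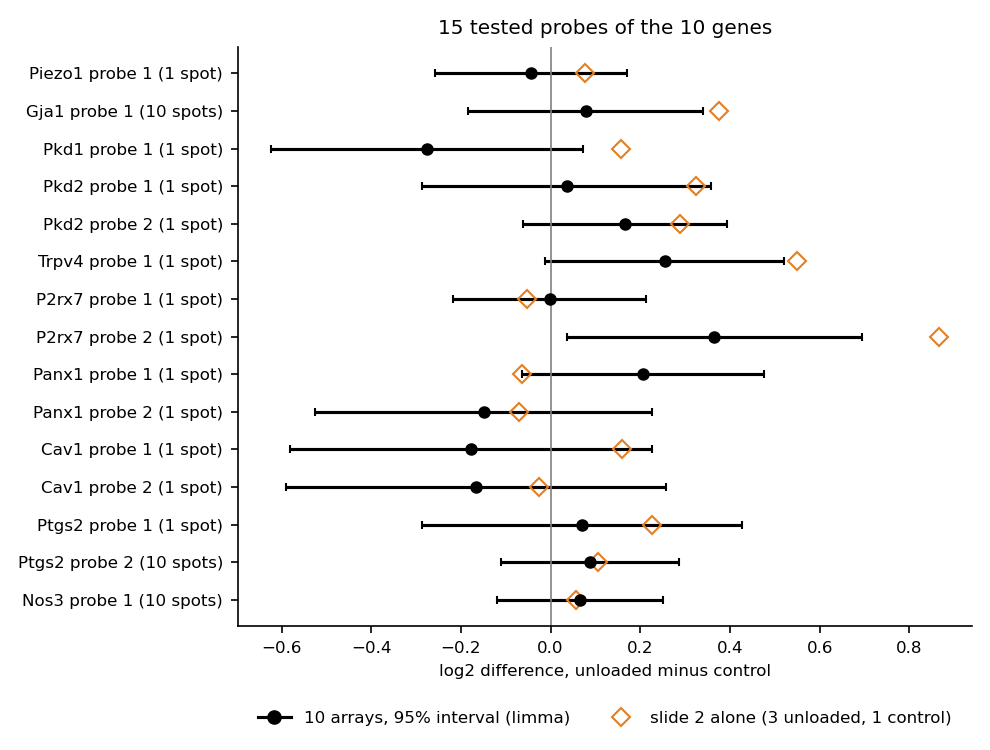
Log2 difference, unloaded minus control, of the 15 tested probes of the 10 genes over 10 arrays with 95% intervals from limma (black), and on slide 2 alone, with 3 unloaded arrays and 1 control (open diamonds). The interval of the second P2rx7 probe, from 0.04 to 0.69, is the only one that leaves out 0, and the slide 2 value of Pkd1 is on the other side of 0 from that over all arrays.

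Gja1 encodes connexin 43, the main gap junction protein between osteocytes and a hemichannel subunit. Its probe is spotted 10 times on each array. The mean level over spots was 2.22, 2.55, 2.26, 1.90 and 2.39 in unloaded femurs, against 2.24, 2.17, 2.33, 2.22 and 1.97 in control femurs. Unloaded 4 is the lowest of all 10 and unloaded 2 the highest, so the control range lies wholly inside the unloaded one. The log2 difference was 0.08 (SE 0.12, 95% interval -0.18 to 0.34, limma adjusted p = 0.739); it was 0.38 within slide 2 and -0.02 with arrays scaled on their medians. Without unloaded 2 it was 0.0064, and without unloaded 4 it was 0.17. Its start region, with an AP-1 match and short cAMP forms, is the first of those shown.

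Cav1, the coat protein of caveolae, is abundant in endothelium and fat cells. Its first probe read 2.32, 2.27, 2.16, 1.96 and 2.77 in unloaded femurs, against 2.06, 2.93, 2.81, 2.48 and 2.09 in control femurs. Each group spans most of the range, with SDs of 0.30 in unloaded and 0.40 in control femurs (n = 5 each). Cav1 differed by -0.18 on the log2 scale (SE 0.19, 95% interval -0.58 to 0.23, limma adjusted p = 0.614), and within slide 2 it was 0.16. It was -0.30 without unloaded 5 and -0.06 without control 2. The second probe gave -0.17 (SE 0.20, limma adjusted p = 0.655), and both probes followed each other over the 10 arrays (Pearson r = 0.81, Spearman rho = 0.66, as a description).

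Ptgs2, the inducible prostaglandin synthase COX-2, rises within hours when bone cells are loaded, and Nos3 is the nitric oxide synthase best known from endothelium. The Ptgs2 probes were dim, with raw signals of 71 to 157 units. The first Ptgs2 probe read -2.63, -2.68, -3.16, -2.82 and -2.25 in unloaded femurs, against -2.46, -2.98, -2.90, -2.51 and -3.05 in control femurs. The lowest and the highest of the 10 are both unloaded femurs. The log2 difference was 0.07 (SE 0.17, 95% interval -0.29 to 0.43, limma adjusted p = 0.834), and it was -0.03 with median scaling and -0.04 without unloaded 5. Its start region is the other one printed above, with the E-box and the overlapping short cAMP form.

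The second Ptgs2 probe, spotted 10 times, read -3.00, -2.93, -3.10, -3.08 and -2.92 in unloaded femurs, against -2.89, -3.09, -3.19, -3.20 and -3.12 in control femurs. Control 1 is the highest and 2 of the other controls are the lowest of the 10. Its log2 difference of 0.09 (SE 0.09, limma adjusted p = 0.611) was close to that of the first probe. Nos3, also spotted 10 times, read -1.14, -1.22, -1.39, -1.25 and -1.37 in unloaded femurs, against -1.32, -1.30, -1.36, -1.41 and -1.31 in control femurs. The control values sit in a narrow band inside the unloaded range, save control 4, the lowest of the 10. The log2 difference was 0.07 (SE 0.09, 95% interval -0.12 to 0.25, limma adjusted p = 0.692) and -0.03 with median scaling.

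The probes on 10 spots show how closely repeat spots of an array agree. For Gja1 the SD among spots of an array was 0.07 at the median, which gives the mean of 10 spots an SE of 0.02. The SD among animals was 0.24 in unloaded and 0.13 in control femurs, well above that SE. For Nos3 the spot SD was 0.14 and the SE of the mean 0.04, beside an SD among animals of 0.10 in unloaded and 0.05 in control femurs. For Ptgs2 the spot SD was 0.25 and the SE of the mean 0.08, beside an SD among animals of 0.08 in unloaded and 0.13 in control femurs, so its animals stand little apart beyond the spots' own noise. A single spot, as for 12 of the 15 probes, has no such check.

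**Figure D3:**
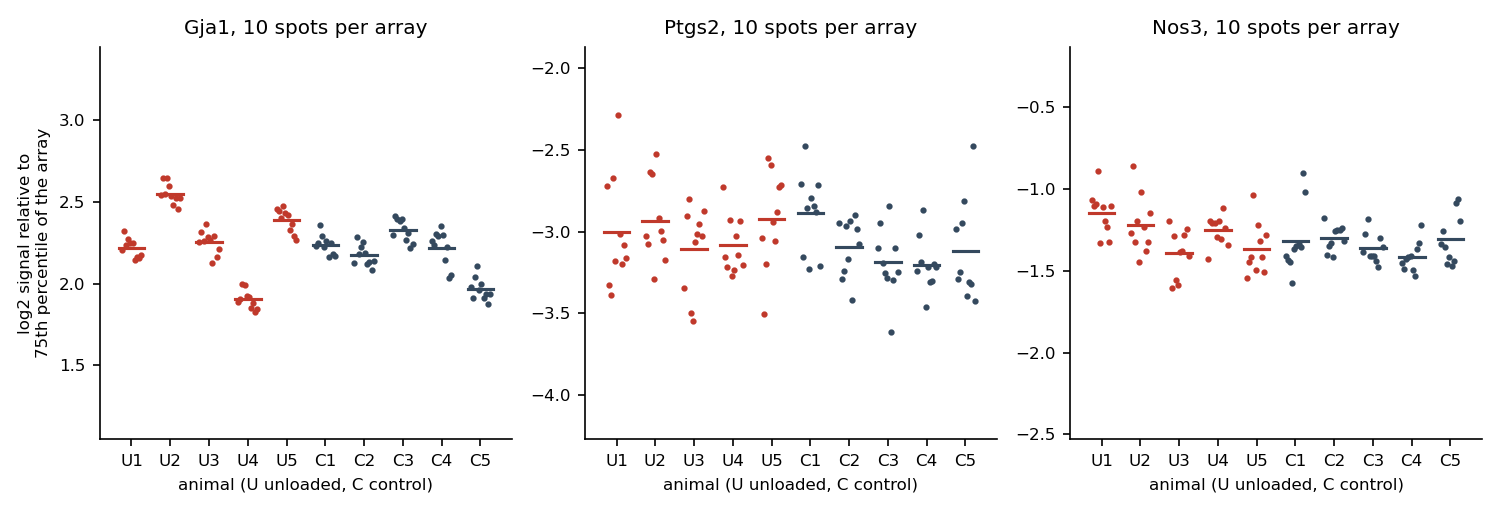
Log2 signal of every spot (points) and its mean (bar) on each array for the probes of Gja1, Ptgs2 and Nos3 that are spotted 10 times, unloaded animals left and control animals right, on axes of equal span. Spots of Gja1 lie close together and the animals stand apart, with unloaded 4 at 1.90 and unloaded 2 at 2.55, whereas spots of Ptgs2 scatter widely on every array.

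Genes around these 10 were counted in 6 lists. Of their 91 tested genes, 0 were called, 15 had an unadjusted p below 0.05 (16.5%, beside 15.8% of all genes), and 1, Gja3, had groups that did not overlap (3.3% of all genes did). Of the channels and purinergic genes, 11 were higher and 9 lower in unloaded femurs, with a median difference of 0.03. P2ry1, an ADP receptor, differed by -0.32 (SE 0.10), Trpm7, a magnesium and calcium channel, by -0.34 (SE 0.12), and Adora2b, an adenosine receptor, by 0.35 (SE 0.12), with limma adjusted p of 0.252, 0.252 and 0.253. Within slide 2 those of P2ry1 and Trpm7 were smaller, at -0.18 and -0.0019, and that of Adora2b was 0.11. Of 2 tested P2ry1 probes, 1 had the other sign.

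Of 12 tested gap junction and pannexin genes, 10 were higher and 2 lower, with a median of 0.20 beside 0.05 over all genes. The mean level of the list was between -1.23 and -1.04 in the 5 unloaded femurs, and between -1.40 and -1.28 in the 5 control femurs. The summed level of the list overlapped, at 6.30 to 7.14 in unloaded and 5.93 to 6.40 in control femurs. The connexins with the smallest p were Gjb2 at 0.36 (SE 0.10, limma adjusted p = 0.224), Gjc3 at 0.42 (SE 0.13, limma adjusted p = 0.239) and Gja3 at 0.24 (SE 0.09, limma adjusted p = 0.258). Within slide 2 they were at 0.45, 0.20 and 0.08, and 1 of the 3 Gja3 probes had the other sign. Gjb2 and Gjc3, whose mean levels were between -2.49 and -2.06, are dim on these arrays. The median of the list was 0.11 with median scaling, where that of all genes was -0.04, and no gene of the list had an unadjusted p below 0.05 after normexp background correction.

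Of 16 cilium genes, 13 were higher and 3 lower with a median of 0.04; with median scaling 4 were higher and 12 lower. Ift80, an intraflagellar transport protein, was the only 1 with an unadjusted p below 0.05, at -0.24 (SE 0.10, limma adjusted p = 0.291). Ift88, of the same transport complex, was at 0.16 (SE 0.12, limma adjusted p = 0.477) and Adcy6, a ciliary adenylyl cyclase, at 0.12 (SE 0.10, limma adjusted p = 0.527). Of 9 caveola genes, 3 were higher and 6 lower with a median of -0.09, and none had an unadjusted p below 0.05. Pacsin2, which bends the caveolar neck, was at -0.29 (SE 0.17), Cav2, the partner of Cav1, at -0.22 (SE 0.14) and Cavin1, a caveolar coat protein, at -0.15 (SE 0.13), with limma adjusted p of 0.371, 0.400 and 0.534. On slide 2 alone 6 caveola genes were higher and 3 lower (median 0.14), with Cav2 at 0.14 and Cavin1 at 0.04. Another tested probe of Ift80, Cav2 and Pacsin2 had the other sign, as had 2 of the 4 Cavin1 probes.

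Of 19 prostaglandin genes, 8 were higher and 11 lower, with a median of -0.0025. Of the receptors for prostaglandin E2, Ptger1 was at 0.35 (SE 0.12) and Ptger4 at -0.33 (SE 0.11), both with a limma adjusted p of 0.252. The other receptors, Ptger2 and Ptger3, were at -0.05 (SE 0.10) and -0.06 (SE 0.09), and 2 of the 3 tested Ptger3 probes were above 0. Pla2g4a, the phospholipase that frees arachidonic acid for Ptgs2, was at -0.29 (SE 0.10, limma adjusted p = 0.252) and at -0.05 within slide 2. Of 15 nitric oxide and cGMP genes, 11 were higher and 4 lower, with a median of 0.07; with median scaling 7 were higher and 8 lower. Prkg2, a cGMP-dependent kinase, was at 0.23 (SE 0.10, limma adjusted p = 0.284) and Ddah1, which clears an inhibitor of nitric oxide synthases, at 0.22 (SE 0.09, limma adjusted p = 0.292). Nosip, which binds Nos3, was at 0.32 (SE 0.15, limma adjusted p = 0.318) and at -0.21 within slide 2; its other tested probe had the other sign.

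**Figure D4:**
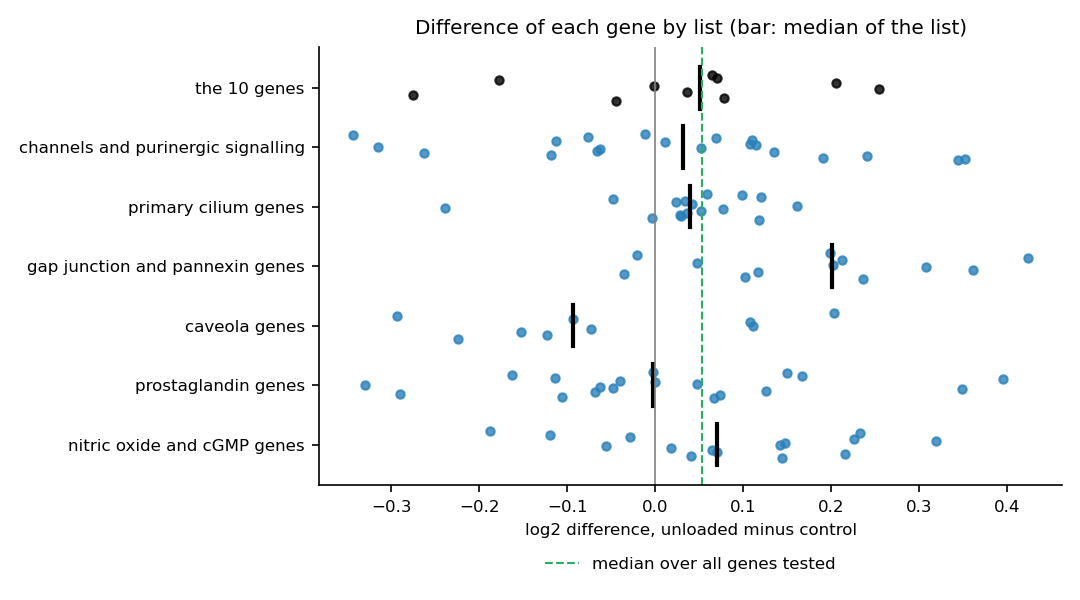
Log2 difference, unloaded minus control, of each of the 10 genes (black) and of the genes of 6 related lists (blue), with a black bar at the median of each list and a dashed line at 0.05, the median over all genes tested. The gap junction and pannexin list has its median at 0.20 and the caveola list at -0.09, and no gene shown was called.

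Markers of the femur's cell types were read beside these results. All 10 osteocyte markers were well above background on all arrays and lay at a median difference of 0.09, all 10 above 0; with median scaling it was -0.0046, with 5 above and 5 below. Their mean level was between 1.09 and 1.39 in unloaded and between 0.98 and 1.24 in control femurs. Of the 10 osteocyte markers, 2 had an unadjusted p below 0.05 in the limma fit (15.8% of all genes did). They were Mepe at 0.55 (SE 0.17, limma adjusted p = 0.240) and Fbln7 at 0.37 (SE 0.16, limma adjusted p = 0.293). The groups did not overlap for Mepe (3.3% of all genes). All 10 cartilage markers were above 0 (median 0.31), all 10 adipocyte markers below 0 (median -0.17) and 10 of 11 muscle markers below 0 (median -0.21); none was called. On slide 2 alone, set against control 5, the median was 0.83 for cartilage, 0.38 for osteocyte and 0.36 for osteoblast markers. There all 10 cartilage and 7 of 10 osteocyte markers were above 0. Adipocyte markers were at a median of -0.08 on that slide, with 3 above 0 and 7 below. Muscle markers turned on slide 2 alone, where 9 of 11 were above 0 (median 0.33), and their median was -0.03 without unloaded 5. Endothelial markers were at a median of -0.08, with 4 of 12 above 0, and on slide 2 alone 9 of 12 were above 0. Monocyte and macrophage markers were at -0.12, with 3 of 10 above 0. Of these, 5 of 10 had an unadjusted p below 0.05 (15.8% of all genes did), 4 of them lower, with Cx3cr1 at -0.97 and Ccr2, whose groups did not overlap, at -0.30. Both of these genes have another tested probe with the other sign, and on slide 2 alone none of the 10 markers had such a p. Osteoblast markers were at 0.13, with 8 of 9 above 0 (5 of 9 with median scaling), and erythroid markers at -0.16, with 3 of 9 above 0. None of the tested markers of these lists was at background.

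Over the 10 arrays, 5 of the 80 pairings of a gene with a marker list had a Pearson r of at least 0.8. They were picked after all were seen, all arrays share their scaling, and they are given as a description. Trpv4 followed the mean osteocyte markers (r = 0.89, rho = 0.78, and 0.84 without the 2 farthest arrays), with r = 0.85 within unloaded and 0.85 within control femurs. It also followed the cartilage markers (r = 0.85, rho = 0.78, and 0.67 without the 2 farthest arrays). Pkd1 followed the endothelial markers (r = 0.91, rho = 0.90, and 0.89 without the 2 farthest), with r = 0.94 within unloaded and 0.84 within control femurs, and the monocyte and macrophage markers (r = 0.89, rho = 0.78, and 0.75 without the 2 farthest). Cav1 followed the adipocyte markers (r = 0.86, rho = 0.77, and 0.69 without the 2 farthest). Within a group, r did not single out these lists. With cartilage markers Pkd1 had r = 0.97 within unloaded and 0.82 within control femurs, and Trpv4 had 0.53 and 0.97. Osteoblast markers gave Trpv4 r = 0.65 over all arrays, 0.63 without the 2 farthest, 0.84 within unloaded and 0.79 within control femurs. With muscle markers Cav1 had r = -0.15 within unloaded and 0.97 within control femurs. Endothelial markers gave Cav1 r = 0.27 over all arrays, 0.90 without the 2 farthest, -0.34 within unloaded and 0.91 within control femurs. The summed level of osteocyte markers was between 358 and 421 in unloaded and between 356 and 389 in control femurs, relative to the 75th percentile as 1. A single probe, that of Ptprz1 at a log2 level of 8.48 in unloaded and 8.42 in control femurs, makes up most of that sum. That of endothelial markers was between 34.2 and 45.0 in unloaded and between 37.1 and 43.2 in control femurs. That of adipocyte markers was between 77.4 and 114 in unloaded and between 68.4 and 143 in control femurs. The part of these cell types in the differences of Trpv4, Pkd1 and Cav1 was not tested.

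**Figure D5:**
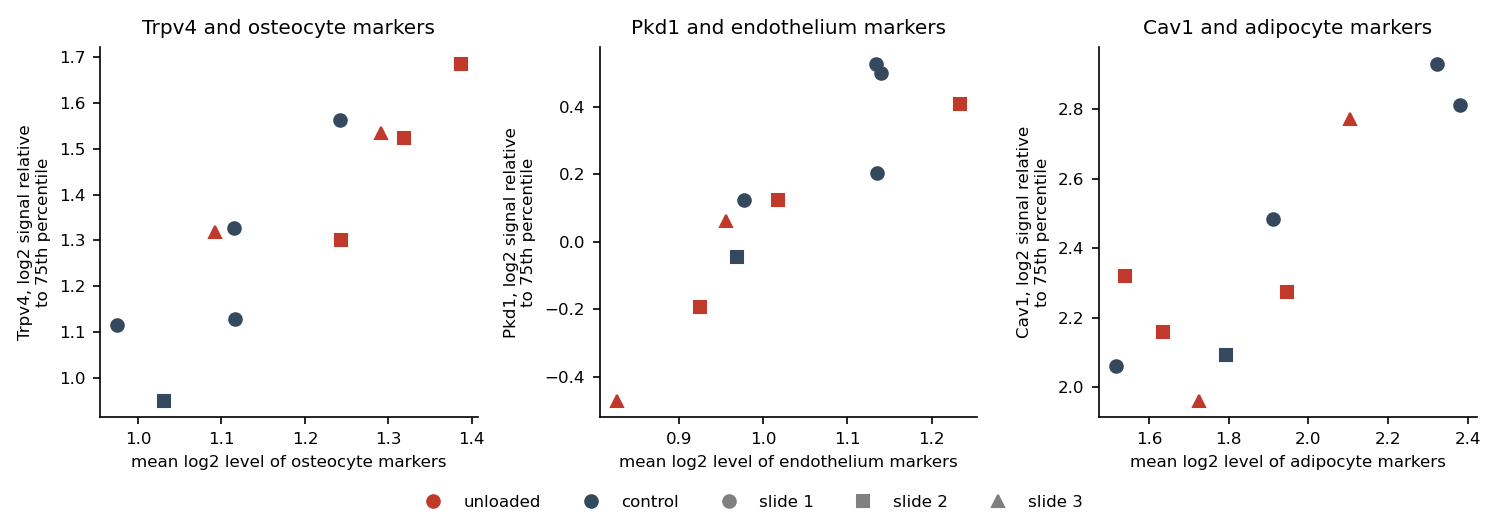
Log2 signal of Trpv4, Pkd1 and Cav1 in each of the 10 femurs against the mean log2 level of osteocyte, endothelium and adipocyte markers, with unloaded animals in red, control animals in dark and the slide as the shape. In that order r was 0.85, 0.94 and 0.66 within unloaded femurs and 0.85, 0.84 and 0.95 within control femurs. In unloaded femurs Cav1 (2.77) and its markers (2.10) were both highest in unloaded 5. Among the other unloaded femurs the highest Cav1 level, 2.32 in unloaded 1, went with the lowest marker mean, 1.54.

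The genes most alike in pattern were found by Pearson r over the 10 arrays among 18909 genes measured on all of them, and with so few arrays high values are common. Trpv4 was nearest to Rflna (r = 0.95), Prelp (r = 0.95) and Matn3 (r = 0.95), of which Prelp and Matn3 are matrix proteins of cartilage and bone. Pkd1 was nearest to Dennd5a (r = 0.99), Washc5 (r = 0.98) and Mbnl2 (r = 0.98). Gja1 was nearest to Gimap3 (r = 0.96), Pdgfra (r = 0.90), a growth factor receptor of mesenchymal cells, and S100a5 (r = 0.90). Nos3 was nearest to Pdgfb (r = 0.91), Golt1a (r = 0.91) and Prr11 (r = 0.87), of which Pdgfb is a growth factor that endothelium secretes. With the mean endothelial markers, however, Nos3 had r = 0.19, and -0.24 without the 2 farthest arrays. That r was 0.63 within unloaded and -0.53 within control femurs. Among the genes most like Piezo1 was Tnfrsf11a (r = 0.90), the RANK receptor of osteoclasts. Panx1 was nearest to Kalrn (r = 0.98) and Cav1 to Uap1 (r = 0.95). Among the 10 genes themselves, r over the 45 pairs ran from -0.72 for Pkd1 with Panx1 to 0.76 for Pkd2 with Ptgs2.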

How the data were processed

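Femur RNA of 5 unloaded and 5 control mice was hybridised to 1 Agilent one-colour array each. Per the file headers, the authors scanned arrays of design 014868 and used Agilent Feature Extraction 9.1.3.1 with its GE1-v5_91_0806 settings; the deposited scanner files hold spot intensity on a linear scale, background-corrected and detrended within an array. The deposited series matrix holds the same intensity, within 0.995 to 1.005 of it on each array, with column medians of 253 to 335; it is uncentred and was used as an alternative.

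The values analysed were log2 processed signals, from which each array's 75th percentile was subtracted; before that it was 637 to 903 units, and 89.8% to 95.5% of spots were well above background. Control spots and 97 spots marked as outliers were left out and spots of a probe averaged. A probe was tested if it was well above background on 4 or more of a group's 5 arrays and had values on 3 or more in both groups: 38629 of 41174 probes. Probes were named through RefSeq (GRCm38.p6): 22951 by accession, 6659 by current name, 3109 by older name and 1 by description, while 8454 kept the file's name. The tested probe with the highest mean stood for a gene.

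Groups were compared with limma 3.58.1 (lmFit, eBayes) in R 4.3.3, two-sided, with Benjamini-Hochberg adjustment over all tested probes and a threshold of 0.05. Version 1.17.8 of data.table read the files, and the procedure was tested on simulated data. Precision is limited by the number of arrays. Slides were taken from the barcodes in the headers. Animal numbers of the 2 groups did not pair: deviations of same-numbered animals correlated between -0.14 and 0.18.

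The 10 genes and all lists were chosen with earlier results of these data known. By rule, all 10 genes are named, as are the 3 genes of smallest p of each pathway list and up to 3 genes most alike each of the 10. Alternatives covered background correction, scaling, the series matrix, the filter, variance model, array weights, body weight, slide, replicate number, choice of probe and each array left out.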

Additional observations from a re-analysis of the deposited data

Results flagged for a closer look

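Of 32 groups of 5 animals examined over the probes of these genes, 2 held an animal far from the other 4, where chance gives about 1.6. The second Cav1 probe stood at -1.36 in unloaded 5, against -2.57 to -2.26 in the other 4 unloaded femurs; without that animal its difference was -0.37 in place of -0.17. The unassigned BC039210 probe stood at -1.43 in unloaded 4, against -1.80 to -1.77 in the other 4 unloaded femurs.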

How the results depend on the processing

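None of the 10 genes was called under any of the 25 alternatives or at an adjusted p below 0.1, and the sign of Trpv4 held in all 25 (0.16 to 0.55, adjusted p 0.285 to 0.986). The count of genes at an unadjusted p below 0.05 was 0; it was 1 (Trpv4) with quantile, cyclic loess, trend and robust variance, slide as a block or slide 2 alone, and 0 to 1 with an array left out: 1 without unloaded 2 (Pkd1) and without unloaded 3, unloaded 4 or control 2 (Trpv4). With animal numbers as a replicate block it was 2 (Pkd1 and Trpv4); the numbers did not pair the animals, and 0 of 5 animals correlated best with its own number. On slide 2 alone, with 1 control, 4 genes did not overlap, beside 47.9% of all genes. Over all probes the share at an unadjusted p below 0.05 ran from 4.7% (slide block) to 24.8% (without unloaded 2). Signs turned as follows. P2rx7 was 0.0010 with normexp, 0.022 with quantile, 0.014 with cyclic loess and 0.18 as a mean over probes. Median scaling, which moved the median of all probes to -0.03 in place of 0.07, gave Gja1 -0.017, Pkd2 -0.059, Ptgs2 -0.025 and Nos3 -0.030. Ptgs2 and Nos3 were -0.041 and -0.024 with quantile and -0.040 and -0.035 with cyclic loess, where Piezo1 was 0.00012. Array weights gave Pkd2 -0.088 and Ptgs2 -0.076, and body weight as a covariate gave Pkd2 -0.022. Slide as a block or slide 2 alone gave Piezo1 0.077, Pkd1 0.16, Panx1 -0.063 and Cav1 0.16. With an array left out, Piezo1 ran from -0.10 to 0.0028, Pkd2 from -0.091 to 0.13, P2rx7 from -0.058 to 0.044 and Ptgs2 from -0.045 to 0.18; the other 6 kept their sign, Gja1 from 0.0064 to 0.17, Cav1 from -0.30 to -0.063, Pkd1 from -0.38 to -0.16, Panx1 from 0.13 to 0.26, Nos3 from 0.032 to 0.094 and Trpv4 from 0.19 to 0.34. The cause of these turns was not tested. Raw signals of 71 to 157 units limit Ptgs2, and 82 to 172 the second P2rx7 probe.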
